A study of Mus musculus with 6 samples.

Results

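The genes described here encode the lysosome's digestive enzymes, its membrane proteins and the proton pump that acidifies it. They are a list of 41 named genes, chosen as a network of the transcription factor TFEB with cathepsins left out. It holds 10 membrane proteins and regulators, 16 hydrolases and their activators, and 15 genes of the vacuolar H+-ATPase (V-ATPase). A gene was found by its symbol among the comma-separated names of each row of the deposited table, which holds 31097 rows. In this way 33 of the 41 had a row: 9 membrane proteins and regulators, 14 hydrolases and 10 V-ATPase genes. Mcoln1, Gusb, Tpp1, Atp6v0c, Atp6v0d1, Atp6v0e, Atp6v1g1 and Atp6ap1 were matched to no row and were not analysed here.

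The study measured messenger RNA in 3T3-F442A, a mouse line of preadipocytes that the labels call an adipocyte line. There were 3 libraries of the parental line with intact SWELL1 (WT) and 3 of the line after CRISPR/Cas9 targeting of SWELL1 (SWELL1 KO). SWELL1, the product of Lrrc8a, is part of the anion channel that opens when cells swell. Both groups were grown in RPMI with 10% FBS, and no label gives a differentiation step or the number of KO clones. The sample names of the KO libraries hold D3, whose meaning no label gives, so genotype, clone and D3 cannot be told apart. Replicates are called biological, without a statement of separate cultures, so each p-value covers only the variation among these 6 libraries. In RNA from whole cultures, fewer cells that express a gene and less RNA per cell cannot be told apart.

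Lysosomes break down material delivered by endocytosis and autophagy with enzymes that work at acid pH. Most soluble hydrolases are carried there by mannose 6-phosphate receptors, and the V-ATPase pumps protons through a membrane sector (V0) driven by a cytosolic sector that hydrolyses ATP (V1). TFEB, TFE3 and MITF are related transcription factors known to bind an E-box element, called the CLEAR motif, in promoters of many of these genes. Their activity is set largely by movement between the lysosome's surface and the nucleus. In fat cells lysosomes also take part in the turnover of lipid droplets.

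Levels are in FPKM, fragments corrected for transcript length and for library depth, a unit that Cufflinks reports and that the table itself does not name. Levels of different genes can therefore be set side by side. Depth estimated from the lowest values was 17.1 to 25.9 M fragments per library, which is 17.1 to 25.9 fragments for 1 FPKM over a transcript of 1 kb. Lrrc8a shared its row with Nup188 and Phyhd1, at 32.5, 35.0 and 33.2 FPKM in WT against 28.8, 28.0 and 27.3 in KO, so the target could not be checked on its own. The 7 fibroblast and preadipocyte markers examined (Pdgfra, Pdgfrb, Col1a1, Col1a2, Col3a1, Thy1 and Vim) summed to 5638 to 6212 FPKM in WT against 5416 to 5506 in KO. Each of the 7 differed: Thy1 (2.01-fold), Col1a2, Col1a1 and Pdgfra fell, and Pdgfrb (1.42-fold), Vim and Col3a1 rose. Fabp4, a fatty acid binding protein of fat cells, fell from 188, 156 and 133 FPKM to 2.45, 3.48 and 4.37, and the part of fat-cell differentiation in the differences described here was not tested. Of the other 5 fat-cell markers, Adipoq stood at 1.87, 1.55 and 1.26 FPKM in WT, against 0.0443, 0 and 0 in KO, Pparg had means of 1.83 and 0.127, Plin1 of 1.01 and 0.101 and Cidec of 0.65 and 0.0080, and Lep was listed at 0 in each library. A listed 0 need not mean that a gene was silent: Cln3, a gene made in most cell types, was also listed at 0 in all 6 libraries. The 10 macrophage and osteoclast markers with a row, cells rich in lysosomes, summed to 1.41 to 1.71 FPKM in WT against 0.169 to 0.426 in KO, with Csf1r listed at 0 throughout and Ptprc listed at 0 in WT and at most 0.0204 in KO. Of these 10, Lyz2 alone reached a mean of 0.5 FPKM in WT and none did in KO.

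KO was compared with WT with limma on log2(FPKM + 0.5) over the 10515 rows that averaged 0.5 FPKM or more, and a gene is said to rise or fall when its Benjamini-Hochberg adjusted p over those rows was under 0.05. Differences are log2 KO minus WT on that scale, with n = 3 libraries a group, and means are given ± SD. Of the 33 members, each of which passed the filter, 15 rose, 7 fell and 11 did not pass. That is 66.7% called, close to the 65.2% called among all tested rows. The split by direction was 45.5% higher and 21.2% lower, beside 28.5% higher and 36.7% lower among all rows, and the median log2 difference was 0.22 over the members and -0.07 over all rows. With quantile normalization 21 members rose (63.6%) and 6 fell (18.2%), beside 32.6% higher and 32.1% lower among all rows. WT and KO values did not overlap for 24 members, with KO above in 15 and below in 9. Among all rows 71.8% did not overlap, with KO above in 31.5% and below in 40.3%. In each of the 3 role groups some members rose and some fell, and both directions were common among all tested rows too.

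**Figure D1:**
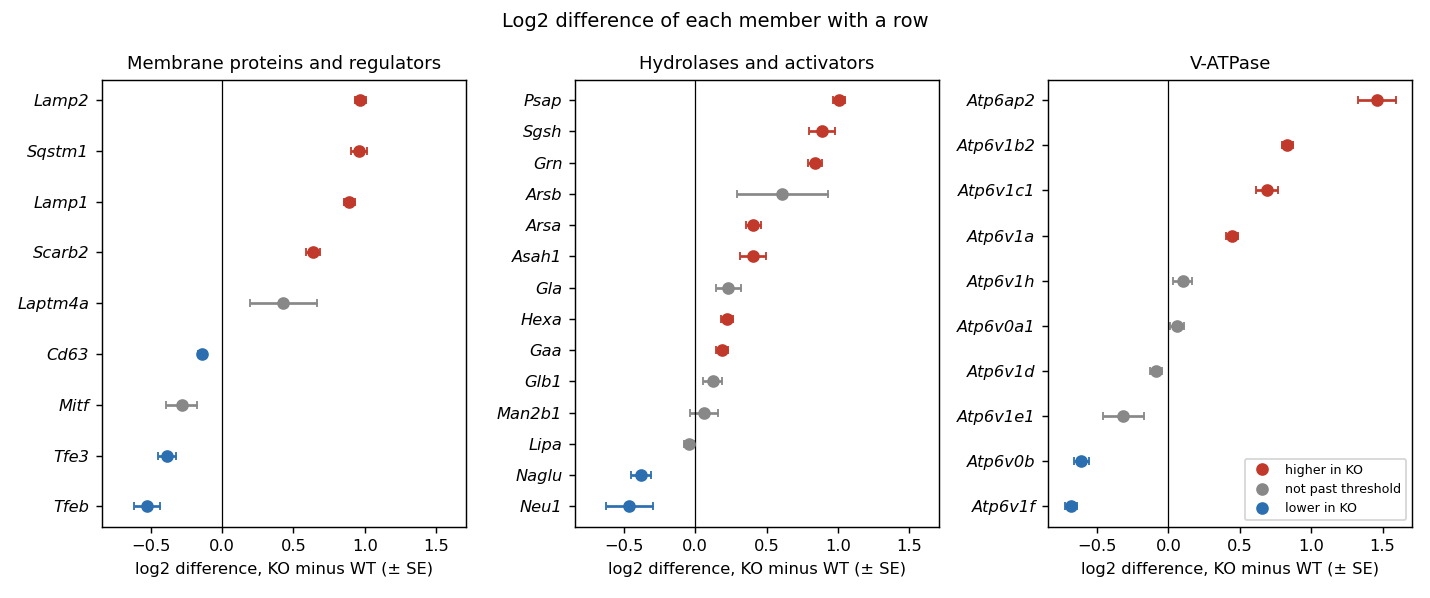
Log2 difference, KO minus WT, for the 33 members with a row (points; bars are the standard error of the limma fit, 3 libraries a group), in panels for membrane proteins and regulators, hydrolases and V-ATPase. Red points are higher and blue points lower in KO at an adjusted p under 0.05, grey points did not pass; the values run from -0.68 for Atp6v1f to 1.46 for Atp6ap2.

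**Figure D2:**
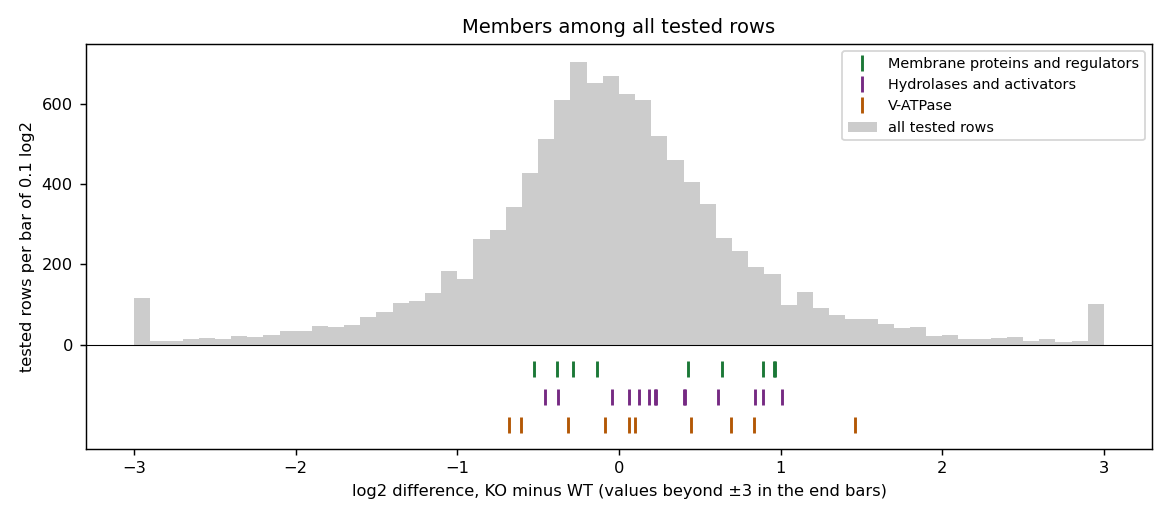
Log2 differences of the 10515 tested rows (grey bars of 0.1 log2, with the 194 rows beyond 3 in size in the end bars) and of the members (ticks below, 1 line for each role group). Each member lies between -0.68 and 1.46, inside the range of all rows.

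Among the 9 membrane proteins and regulators 4 rose (44.4%), 3 fell (33.3%) and 2 did not pass, with a median log2 difference of 0.43. Among all tested rows 28.5% rose and 36.7% fell. Lamp1, Lamp2 and Scarb2 rose, and Cd63 fell slightly as deposited but not under quantile normalization. LAMP1 and LAMP2 are the heavily glycosylated proteins that line the lysosomal membrane. Lamp1 (chromosome 8, 13159161 to 13175338, GRCm38) stood at 217, 215 and 216 FPKM in WT, against 421, 386 and 398 in KO. The WT libraries were nearly equal, and each KO library lay far above them: Lamp1 rose 1.86-fold (log2 difference 0.89, SE 0.04, adjusted p = 1.48e-05). Lamp2 (chromosome X, 38401357 to 38456454) stood at 181, 182 and 173 FPKM in WT, against 363, 344 and 341 in KO. It rose 1.96-fold (log2 difference 0.97, SE 0.04, adjusted p = 1.15e-05), so the pair kept a similar level to one another in both groups. Scarb2, which encodes the lysosomal membrane protein LIMP2, rose 1.57-fold, from 21.8, 23.1 and 23.8 FPKM to 36.5, 34.9 and 36.2 (adjusted p = 8.69e-05).

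Cd63, a tetraspanin of late endosomes and lysosomes, had the highest level of the group and made up 56.8% of its summed FPKM in WT. It stood at 1357, 1336 and 1325 FPKM in WT, against 1227, 1197 and 1229 in KO. The groups did not overlap, and as deposited the gene fell 1.1-fold (log2 difference -0.14, SE 0.03, adjusted p = 0.00554), but the difference was -0.07 with median-ratio scaling (adjusted p = 0.0855) and turned to 0.11 with quantile normalization (adjusted p = 0.0378). A transcribed pseudogene of Cd63 is annotated, and its reads could have been shared. Laptm4a, a small protein of late endosomes, was at 448, 337 and 346 FPKM in WT, against 617, 356 and 580 in KO. KO replicate 2 lay inside the WT range and the other two KO libraries above it, and the difference did not pass (0.43, SE 0.24, adjusted p = 0.158). Without KO replicate 2 it was 0.68 (adjusted p = 0.0115). The related Laptm4b, which is not among the 41, rose 2.11-fold (adjusted p = 5.71e-06).

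The autophagy receptor gene Sqstm1, which encodes p62 and is itself a known TFEB target, stood at 184, 175 and 183 FPKM in WT, against 370, 327 and 359 in KO. Its groups were far apart, and it rose 1.95-fold (log2 difference 0.96, SE 0.06, adjusted p = 3.73e-05). The genes of the transcription factors lay on the other side of 0. Tfeb (chromosome 17, 47737030 to 47792419) was at 5.69, 5.83 and 4.85 FPKM in WT, against 3.80, 3.73 and 3.35 in KO, and fell 1.5-fold (log2 difference -0.53, SE 0.09, adjusted p = 0.00297). Tfe3, the most abundant of the family here, was at 32.7, 35.2 and 31.8 FPKM in WT, against 24.0, 25.1 and 27.0 in KO, and fell 1.31-fold (log2 difference -0.38, SE 0.06, adjusted p = 0.00247). Mitf was at 4.341, 5.18 and 4.62 FPKM in WT, against 3.41, 3.63 and 4.337 in KO. The highest KO library was just under the lowest WT library, and the difference did not pass (-0.28, SE 0.11, adjusted p = 0.0597; -0.37 and adjusted p = 0.0213 without KO replicate 3). Messenger levels do not show where these factors were in the cell. Tfec, the other member of the family, was at 0, 0 and 0.0284 FPKM in WT against 0.0617, 0.228 and 0.451 in KO, under the filter. The 5 markers of melanocytes, a cell type in which MITF is active, summed to 0.0410 to 0.152 FPKM in WT against 0.0117 to 0.267 in KO, with Tyrp1, Dct and Pmel listed at 0 in each library, Tyr at most at 0.0509 and Mlana at most at 0.220.

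**Figure D3:**
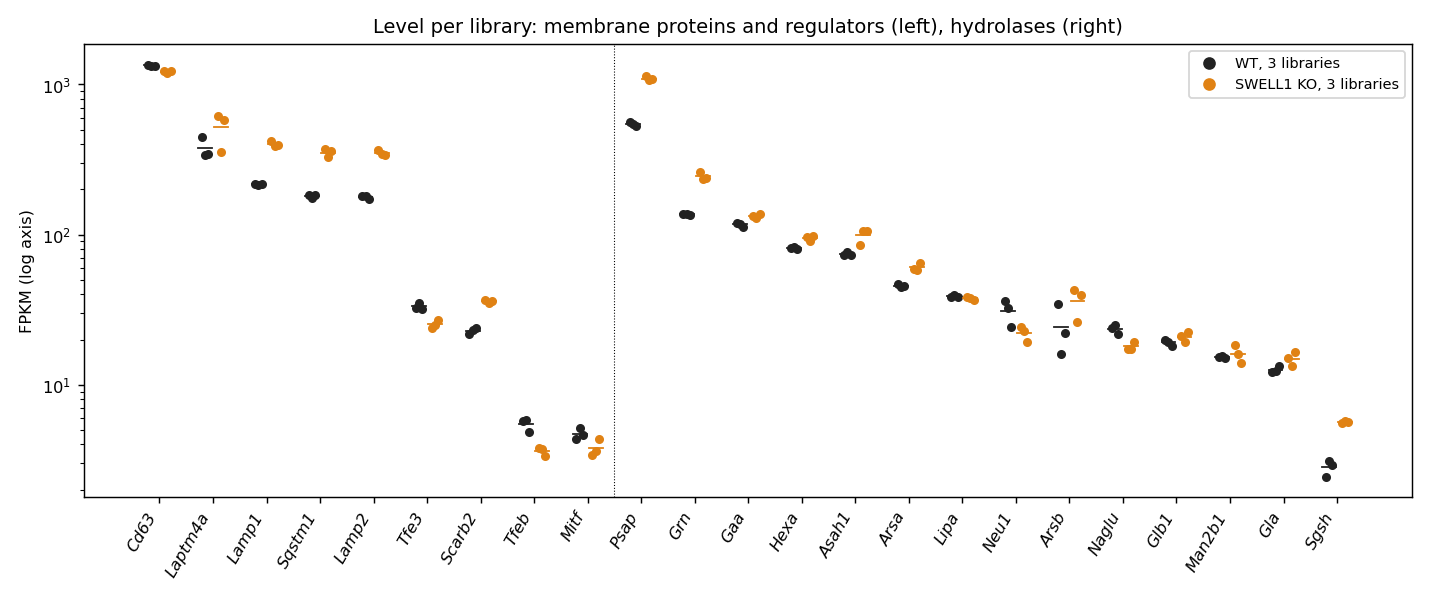
FPKM of each library on a log axis (black, WT; orange, SWELL1 KO; lines are means of 3 libraries) for membrane proteins and regulators, left of the dotted line, and hydrolases, right of it, in order of the WT mean. Lamp1, Sqstm1, Lamp2, Psap and Grn have KO libraries well above WT, Tfe3 and Tfeb have them below, and Laptm4a and Arsb are spread within groups.

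Among the hydrolases 7 of 14 rose, 2 fell and 5 did not pass, with a median log2 difference of 0.23. That is 64.3% called, close to the 65.2% called among all tested rows. Of all tested rows 28.5% rose and 36.7% fell. The largest increases in the hydrolase group were in 2 precursors that are not hydrolases themselves and in 1 sulfatase. Psap encodes prosaposin, which is cut into the saposins that present sphingolipids to their hydrolases. It lies on chromosome 10 (60277627 to 60302597) and stood at 564, 544 and 528 FPKM in WT, against 1135, 1072 and 1080 in KO. The groups were widely separated, and Psap rose 2.01-fold (log2 difference 1.01, SE 0.04, adjusted p = 1.01e-05). It made up 47.5% of the summed FPKM of the 13 unshared hydrolase rows in WT. Grn, which encodes progranulin, a secreted and lysosomal precursor that binds prosaposin, stood at 136, 138 and 135 FPKM in WT, against 261, 234 and 239 in KO. It rose 1.79-fold (log2 difference 0.84, SE 0.05, adjusted p = 3.73e-05). An opposite-strand gene, Fam171a2, overlaps Grn by 68 bases and was at 13.5, 12.9 and 13.9 FPKM in WT and listed at 0 in each KO library. Lamp1, Hexa, Sgsh, Atp6v1b2 and Atp6v1e1 also overlap a gene on the opposite strand, whose rows reached at most 1.08 FPKM. Atp6v1h overlaps Rgs20, at 1.39 to 1.66 FPKM in WT and 3.37 to 4.38 in KO, and Sqstm1 overlaps Mrnip, not analysed here. No label says whether strand was used in the counting.

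Sgsh, the heparan sulfate sulfamidase, had the lowest level of the hydrolases, at 2.44, 3.11 and 2.90 FPKM in WT against 5.53, 5.74 and 5.61 in KO. It rose 2.00-fold (log2 difference 0.89, SE 0.09, adjusted p = 0.000320). Another sulfatase gene, Arsa, whose enzyme removes sulfate from sulfatide, went from 46.6, 44.9 and 45.3 FPKM to 58.9, 58.3 and 64.7, a rise of 1.33-fold (log2 difference 0.41, SE 0.05, adjusted p = 0.000766). Arsb, the sulfatase of dermatan sulfate, varied widely inside both groups, at 34.3, 15.9 and 22.2 FPKM in WT against 43.0, 26.1 and 39.4 in KO. Its groups overlapped and it did not pass (adjusted p = 0.142), but without WT replicate 1 it did (log2 difference 0.89, adjusted p = 0.0377). The other increases were smaller: Asah1, the acid ceramidase, rose 1.33-fold (74.2 ± 2.21 to 98.9 ± 11.3 FPKM), Hexa, a beta-hexosaminidase subunit, 1.17-fold (81.6 ± 1.48 to 95.5 ± 4.01), and Gaa, the acid alpha-glucosidase that degrades glycogen, 1.14-fold (117 ± 3.82 to 133 ± 3.94).

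Both decreases were in enzymes that clip sugars, but so do the enzymes of Hexa and Gaa, which rose. Naglu, which removes N-acetylglucosamine from heparan sulfate, stood at 23.9, 24.9 and 21.9 FPKM in WT, against 17.4, 17.4 and 19.3 in KO, and fell 1.31-fold (log2 difference -0.38, SE 0.07, adjusted p = 0.00374). Naglu and Sgsh, which act on the same polymer, thus moved in opposite directions. Neu1, the lysosomal sialidase, was at 36.2, 32.2 and 24.3 FPKM in WT, against 24.2, 22.8 and 19.4 in KO. The lowest WT library was barely above the highest KO library, and Neu1 passed by little (log2 difference -0.46, SE 0.16, adjusted p = 0.0481). It no longer passed when WT replicate 1 or 2, or any 1 of the 3 KO libraries, was left out (adjusted p from 0.0616 to 0.132), with median-ratio scaling (0.0789), with quantile normalization (0.128) and with no filter on low values (0.0717). Without WT replicate 3 it passed more clearly (log2 difference -0.62, adjusted p = 0.00809), as it did with replicate number in the fit (adjusted p = 0.00712).

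The remaining 4 hydrolase rows did not pass. Lipa, the acid lipase that digests cholesteryl esters and triglycerides, was at 38.9 ± 0.64 FPKM in WT against 37.7 ± 0.98 in KO (log2 difference -0.04, adjusted p = 0.330), and the difference turned to 0.02 with median-ratio scaling (adjusted p = 0.606) and to 0.14 with quantile normalization (adjusted p = 0.0190). Man2b1, the acid alpha-mannosidase, was at 15.4 ± 0.26 and 16.1 ± 2.18 (adjusted p = 0.611). Gla, the alpha-galactosidase A gene, was at 12.6 ± 0.68 and 14.9 ± 1.57 (log2 difference 0.23, adjusted p = 0.0592) and passed without KO replicate 2 (adjusted p = 0.0180) and under both scalings (0.0258 and 0.0204). Glb1, the beta-galactosidase gene, shared its row with Tmppe, a gene lying inside it on the same strand, at 19.9, 19.4 and 18.1 FPKM in WT against 21.0, 19.3 and 22.3 in KO (adjusted p = 0.163, and 0.0256 with quantile normalization). Summed over the 13 unshared rows, hydrolases held 1112 to 1184 FPKM in WT against 1830 to 1933 in KO. Without Psap and Grn the sums were 450 to 484 in WT and 524 to 556 in KO, so most of the added FPKM belonged to those precursors.

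Of the 10 V-ATPase genes with a row 4 rose (40.0%), 2 fell (20.0%) and 4 did not pass. Their median log2 difference was 0.08. Among all tested rows 28.5% rose and 36.7% fell. The summed FPKM of the 10 V-ATPase rows was 476 to 513 in WT and 472 to 509 in KO, which overlap. The rises were in subunits A and B of the ATP-hydrolysing head, in subunit C and in an accessory protein. Atp6ap2, the accessory subunit also known as the prorenin receptor (chromosome X, 12587801 to 12617049), stood at 19.9, 20.9 and 22.4 FPKM in WT, against 54.3, 51.8 and 72.1 in KO. The groups stood far apart, and the gene rose 2.82-fold (log2 difference 1.46, SE 0.13, adjusted p = 0.000209), the largest difference among the 33. Atp6v1b2, the widely made form of the B subunit, stood at 37.4, 35.4 and 36.0 FPKM in WT, against 66.5, 63.0 and 65.6 in KO, a rise of 1.79-fold (log2 difference 0.83, SE 0.04, adjusted p = 2.01e-05).

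Atp6v1a, the catalytic A subunit, stood at 32.7, 32.2 and 32.9 FPKM in WT, against 45.5, 42.5 and 45.9 in KO, and rose 1.37-fold (log2 difference 0.45, SE 0.04, adjusted p = 0.000248). Atp6v1c1, whose product links head and stalk and takes part in reversible assembly of the pump, stood at 21.8, 22.1 and 20.7 FPKM in WT, against 36.6, 31.3 and 37.4 in KO. It rose 1.63-fold (log2 difference 0.69, SE 0.08, adjusted p = 0.000483). In these 4 genes the lowest KO library was above the highest WT library.

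The decreases were in the 2 V-ATPase rows of highest WT level. Atp6v1f, a small subunit of the central rotor (chromosome 6, 29467718 to 29470512), stood at 155, 154 and 163 FPKM in WT, against 94.6, 97.3 and 102 in KO, and fell 1.61-fold (log2 difference -0.68, SE 0.04, adjusted p = 5.89e-05). Atp6v0b, a proteolipid of the membrane ring (chromosome 4, 117884326 to 117887333), stood at 83.7, 87.7 and 87.7 FPKM in WT, against 58.9, 52.9 and 57.8 in KO, and fell 1.53-fold (log2 difference -0.61, SE 0.05, adjusted p = 0.000156). These genes also have the shortest transcripts of the 33, at 806 and 1000 bases for the longest annotated form. Over all tested rows with a length, the median log2 difference was -0.17 for transcripts under 1 kb and -0.03 for those of 4 kb or more. The shares that rose and fell were 17.3% and 36.8% under 1 kb, and 32.6% and 35.1% at 4 kb or more. The rank correlation (Spearman) of length with the log2 difference was 0.07 over these rows and -0.02 over the 33 members. The part of length in either decrease was not tested.

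The other V-ATPase rows did not pass. Atp6v1e1, a stalk subunit, was at 61.5, 76.6 and 83.9 FPKM in WT, against 50.6, 63.1 and 64.0 in KO, with overlapping groups (log2 difference -0.32, SE 0.15, adjusted p = 0.103; -0.44 and adjusted p = 0.0305 without WT replicate 1). Atp6v1d, a rotor subunit, was at 24.4 ± 0.51 and 23.0 ± 0.73 (log2 difference -0.09, adjusted p = 0.109), and its difference turned to 0.05 with quantile normalization (adjusted p = 0.306). Atp6v1h, a regulatory subunit, was at 25.9 ± 0.93 and 27.8 ± 2.13 (adjusted p = 0.225, and 0.0174 with quantile normalization). Atp6v0a1, a membrane subunit, was at 14.9 ± 0.31 and 15.6 ± 0.67 (adjusted p = 0.292, and 0.0266 with quantile normalization).

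The order of levels changed with these differences. In WT it was Atp6v1f, Atp6v0b, Atp6v1e1, Atp6v1b2, Atp6v1a, Atp6v1h, Atp6v1d, Atp6v1c1, Atp6ap2 and Atp6v0a1, in which Atp6v1h and Atp6v1d, Atp6v1c1 and Atp6ap2, and Atp6v0b and Atp6v1e1 were separated by about their SDs or less. In KO Atp6v1f remained first at 98.1 ± 4.01 FPKM. It was followed by Atp6v1b2 (65.0 ± 1.80), Atp6ap2 (59.4 ± 11.1), Atp6v1e1 (59.2 ± 7.47) and Atp6v0b (56.5 ± 3.17). Neighbours among these 4 were separated by less than the larger of their SDs. Below them came Atp6v1a, Atp6v1c1, Atp6v1h, Atp6v1d and Atp6v0a1. The highest of the 7 V1 rows exceeded the lowest by 7.13, 6.96 and 7.92-fold in the WT libraries and by 4.26, 4.11 and 4.46-fold in the KO libraries. The highest was Atp6v1f in each library, so the narrower spread in KO includes its fall and need not hold for the other V1 rows. The ratio of Atp6v1b2 to Atp6v1a, whose products alternate in the head, was 1.15, 1.1 and 1.1 in WT and 1.46, 1.48 and 1.43 in KO.

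**Figure D4:**
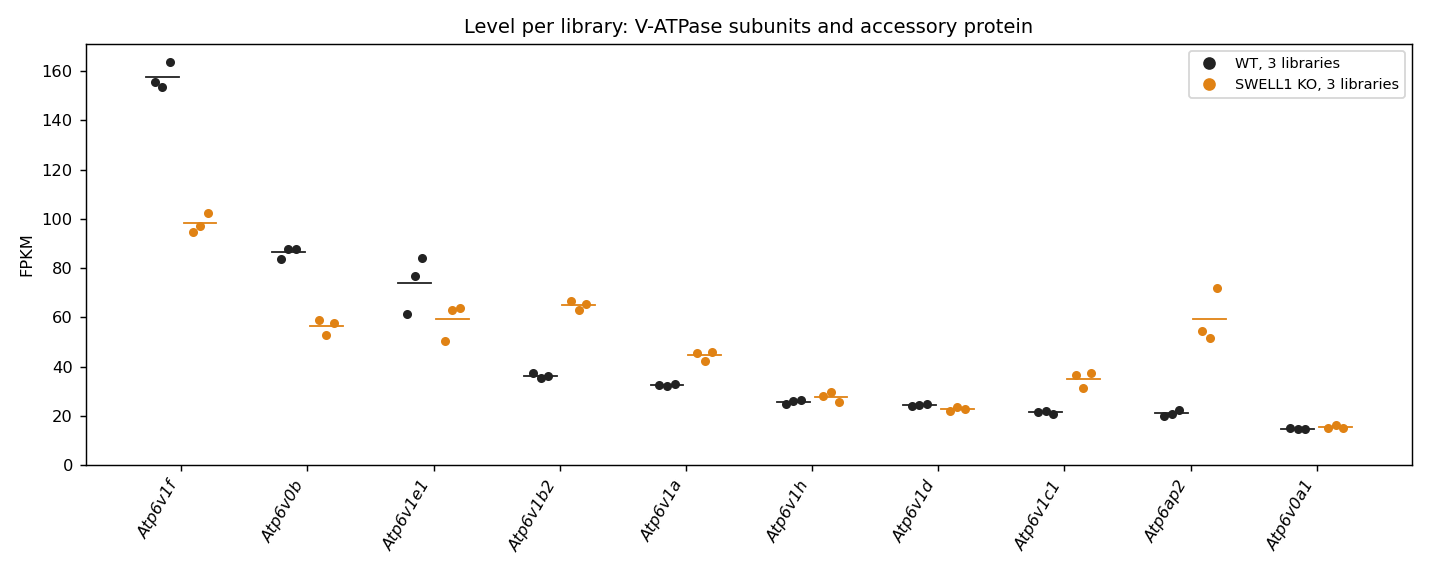
FPKM of each library for the 10 V-ATPase rows in order of the WT mean (black, WT; orange, SWELL1 KO; lines are means of 3 libraries), on an axis from 0. Atp6v1f and Atp6v0b are lower in KO, Atp6v1b2, Atp6v1a, Atp6v1c1 and Atp6ap2 are higher. The span from the highest row, Atp6v1f, to the lowest, Atp6v0a1, is narrower in KO.

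Promoters were examined because TFEB and TFE3 are known to bind the E-box CACGTG with flanks, the full CLEAR word being GTCACGTGAC. RefSeq promoters (GRCm38.p6, 250 bases before to 50 after a start site) were found by symbol for 36 of the 41 members. The E-box reads the same on both strands. It was in a promoter of 12 of these 36 (33.3%), beside 8.09% of the 27025 genes in the promoter table. With a flank on at least 1 side (GTCACGTG or CACGTGAC, which contain the E-box) it was in 9 of 36 (25.0%), beside 2.55%, and the full word was in none of the 36 and in 0.37% of all. These are matches of letters and not measured binding. Because the 41 were chosen as a TFEB network, a higher share among them can follow from that choice. The 27025 genes were not filtered by expression, and the difference in shares was not tested. By direction the E-box was in 5 of the 12 risen members with a promoter (41.7%), in 2 of the 7 that fell (28.6%) and in 2 of the 10 that did not pass (20.0%). With a flank on at least 1 side it was in 3 of these 12 (25.0%), 2 of these 7 (28.6%) and 2 of these 10 (20.0%). Of the 7 members with a promoter but no row, 3 held the E-box (42.9%) and 2 held it with a flank (28.6%).

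The Lamp1 promoter is shown because it holds 4 of these E-boxes, more than any other member. They lie within the 80 bases before its start site (chr8:13159081-13159160, plus strand, GRCm38.p6), where the capitals mark each E-box.
Lamp1: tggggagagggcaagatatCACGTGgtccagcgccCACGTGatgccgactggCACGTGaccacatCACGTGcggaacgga
For comparison, 26-base windows are given for risen and fallen members that hold a flanked E-box, since the same word stood before genes that went in opposite directions. Capitals mark the E-box with its flank, each on the gene's own strand.
Arsa (rose; chr15:89477425-89477450, minus strand): aactcagtGTCACGTGttgtctgctc
Sgsh (rose; chr11:119355524-119355549, minus strand): gcctgccgtgCACGTGACcgtgggga
Naglu (fell; chr11:101070011-101070036, plus strand): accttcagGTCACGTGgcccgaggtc
Atp6v0b (fell; chr4:117887350-117887375, minus strand): gcgcggggGTCACGTGgggtcggcgc
The windows of Arsa, Sgsh, Naglu and Atp6v0b begin their E-box 16, 29, 73 and 36 bases before the start site. Lamp2 and Sqstm1, which rose more than Arsa, have a promoter in the table without these letters. The part of the E-box in any of these differences was not tested.

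**Figure D5:**
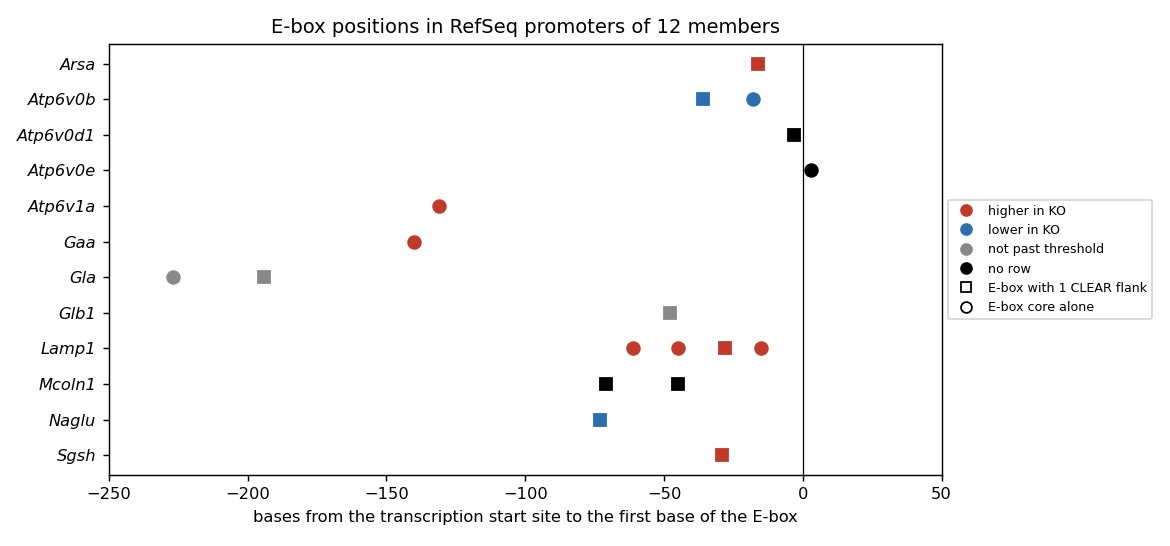
Distance in bases from the transcription start site to each E-box in the RefSeq promoters of the 12 members that hold one (squares, with 1 CLEAR flank; circles, without), coloured by the call of the gene (red, higher in KO; blue, lower; grey, not past the threshold; black, no row). Lamp1 holds 4 within 61 bases of its start, and both red and blue genes have flanked E-boxes.

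Lysosomal genes outside the 41 were read from lists of enzymes, membrane proteins, transport to the lysosome, nutrient sensing, autophagy and further V-ATPase genes. Their shares are given beside the 28.5% of all tested rows that rose and the 36.7% that fell. Of 18 tested lysosomal enzymes 7 rose (38.9%) and 5 fell (27.8%). Smpd1, the acid sphingomyelinase, fell 2.10-fold from 39.1 ± 1.23 to 18.6 ± 0.72 FPKM (SD, adjusted p = 1.48e-05). Of 15 tested membrane proteins 6 rose (40.0%) and 4 fell (26.7%). Tmem192 rose 2.68-fold from 9.93 ± 0.53 to 26.6 ± 2.33 FPKM (adjusted p = 3.33e-05), while the calcium channel gene Mcoln3, counted among the 4, was at 0.76 ± 0.079 in WT and 0.24 ± 0.010 in KO and passed the filter only through its WT level.

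In the route that delivers enzymes by mannose 6-phosphate, 5 of 7 tested genes fell (71.4%) and 1 rose (14.3%). The receptor genes themselves parted. M6pr, the cation-dependent receptor, was at 68.0, 73.5 and 73.4 FPKM in WT, against 34.0, 33.5 and 35.0 in KO and fell 2.10-fold (adjusted p = 1.34e-05). Igf2r, the larger receptor that also clears IGF2, was at 44.8, 43.8 and 38.1 FPKM in WT, against 85.4, 76.8 and 79.4 in KO and rose 1.91-fold (adjusted p = 0.000141). In WT M6pr had the higher level in each library and in KO Igf2r did. The adaptors Gga1, Gga2, Gga3 and Ap1g1, which load the receptors into vesicles, fell, with Gga2 going from 30.1 ± 1.26 to 16.2 ± 0.45 FPKM.

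Nutrients are sensed on the lysosome by the Rag, Ragulator and folliculin proteins, which recruit the mTORC1 kinase. Of 8 tested genes of these and of mTORC1 (Mtor and Rptor), 2 rose (25.0%) and none fell. They were Fnip2 (1.63-fold, adjusted p = 0.000303) and Mtor (1.19-fold, adjusted p = 0.0401). Among 19 tested autophagy genes 5 rose (26.3%) and 7 fell (36.8%), shares near those of all rows. Map1lc3a, a gene of the LC3 proteins that coat autophagosomes, fell 4.45-fold from 139 ± 1.95 to 31.3 ± 1.24 FPKM (adjusted p = 1.53e-06), and Atg3, the enzyme that attaches LC3 to lipid, rose 1.92-fold from 12.1 ± 1.6 to 23.3 ± 7.43 (adjusted p = 0.0184). Sqstm1 thus rose while Map1lc3a fell, and the related receptor gene Nbr1 fell 1.25-fold (adjusted p = 0.00244).

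Of 11 tested further V-ATPase and assembly genes 4 rose (36.4%) and 4 fell (36.4%). The other forms of the a subunit, beside Atp6v0a1, did not move one way. Tcirg1, the a3 subunit, fell 1.74-fold from 33.8 ± 0.70 to 19.4 ± 0.95 FPKM (adjusted p = 4.69e-05), and Atp6v0a2 fell 1.63-fold from 11.0 ± 1.1 to 6.75 ± 0.12 (adjusted p = 0.000627). Atp6v0a4, the a4 subunit known from kidney, shared its row with D630045J12Rik, and that row rose 1.68-fold from 2.25 ± 0.031 to 3.79 ± 0.84 (adjusted p = 0.0104). Ncoa7, a TLDc-domain protein that interacts with the V-ATPase, rose 3.51-fold from 2.71 ± 0.34 to 9.49 ± 0.49 (adjusted p = 3.44e-05). Atp6v1b1, Atp6v1c2, Atp6v1e2, Atp6v1g2 and Atp6v1g3 were listed at 0 in each library, and Atp6v0d2 was at 0.0155 FPKM in KO replicate 2 and listed at 0 in the others.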

How the data were processed

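RNA was sequenced from 3 WT and 3 SWELL1 KO libraries. TopHat 8.7, Cufflinks 2.02 and GRCm38 are named in the submitters' processing notes; settings and annotation are not given in these sources. The authors deposited 1 table whose values were taken as FPKM, a unit inferred from Cufflinks and from values that are never negative and mostly not whole. They were used unscaled. Depth was estimated from where the smallest values pile up in 1237 single-transcript genes of 2500 bases or longer. Within groups 26.3% to 32.2% of rows at 10 FPKM or more differed by over 10% between libraries, so no library looked deposited more than once.

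Rows averaging 0.5 FPKM or more were fitted with limma 3.58.1 (R 4.3.3; mean-variance trend, two-sided), tested first on simulated data. Python 3.11.15 and pandas 2.3.3 made the tables. Gene positions and lengths are from GENCODE on GRCm38. Values per library were printed for, in each role group, up to 4 largest increases and 4 largest decreases with non-overlapping groups, the highest gene, the 3 transcription factors and shared rows. From each outside list the largest change each way was named, except 1 that is not reported here. Laptm4a, Arsb, Atp6v1e1, Laptm4b, Atp6v0a2, Atp6v0a4, Nbr1, Mtor, the Gga genes and Ap1g1 were added after their values were seen. The members, lists and tests were chosen with earlier results of these data known.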

Additional observations from a re-analysis of the deposited data

How the results depend on the processing

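Across 14 alternatives, 20 of the 33 members kept their direction and their side of the threshold. Pseudocounts of 0.1 and 1, a filter at a mean of 1 FPKM and the robust fit changed no member. The count of hydrolases that fell went from 2 to 1 with no filter on low values, with median-ratio scaling and with quantile normalization, and ranged from 1 to 2 when 1 library was left out; the gene lost was Neu1. With quantile normalization the hydrolases that rose went from 7 to 10 and the V-ATPase genes that rose from 4 to 6. With quantile normalization the sign changed for Cd63 (0.11), Lipa (0.14) and Atp6v1d (0.048), and with median-ratio scaling for Lipa (0.022); Man2b1 ranged from -0.033 to 0.157 when 1 library was left out. All rows called numbered 6303 to 6512 when 1 library was left out. Replicate numbers are shared by the groups, but over all tested rows same-numbered libraries did not deviate together (correlations 0.0034, 0.012 and -0.093). Single members could still follow the number. Neu1, Arsb, Atp6v1e1 and Laptm4a ranked their replicates in the same order in WT and KO, and others, such as Gla and Hexa, did not. Whether same-numbered libraries were paired is therefore not settled. The fit with the replicate block gave 2846 higher and 3688 lower rows, against 2998 and 3862, and added calls for Gla, Arsb and Atp6v1e1. No library correlated best with its own number. Depth was known only as an estimate, and Sgsh, Tfeb and Mitf, under 6 FPKM, rest on the fewest fragments per base among the members.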
